A study of Mus musculus with 6 samples.

Results

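The platelet-derived growth factor (PDGF) receptors Pdgfra and Pdgfrb, their ligand genes Pdgfa, Pdgfb and Pdgfc, and the stem cell factor receptor Kit with its ligand gene Kitl are described here in sorted cells of mouse embryoid bodies. All probe sets that the authors' comparison table names after these 7 genes were taken, which gave 15 of its 22526 probe sets that are not Affymetrix controls, and 7 of the 12290 genes it names. CGR8 mouse embryonic stem cells were grown into embryoid bodies, cell aggregates that form the germ layers. Flow cytometry on day 5 kept cells with CXCR4 and FLK-1 at the surface (CXCR4+/FLK-1+, called double positive) and cells that had neither protein (CXCR4-/FLK-1-, called double negative). FLK-1 is the product of Kdr. Each group has 3 samples, described as collected independently, and each was hybridised to 1 Affymetrix Mouse 430 2.0 array. All 6 samples come from the same cell line, and no other treatment or genotype is given. The series text speaks of RNA pools without saying what was pooled, so p-values measure the spread between these 6 arrays.

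PDGFs are dimeric ligands that bring receptor chains together, and the paired receptors then phosphorylate each other and recruit adaptor proteins that act through Ras and phosphoinositide 3-kinase. PDGFR-alpha is a surface marker of early mesoderm, above all paraxial and cardiac mesoderm, and also of primitive endoderm, while PDGFR-beta is best known from the mural cells that cover blood vessels. Kit is a receptor of the same structural class and is used by blood progenitors, germ cells and melanoblasts.

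Pdgfra, Kit and Kdr are neighbours: in RefSeq's gene order on mouse chromosome 5 (GRCm38.p6), Pdgfra is the protein-coding gene just before Kit and Kdr the one just after it. The 250 bases before the RefSeq start of each are shown because 1 of these 3 neighbours encodes a sorted protein and the other 2 are receptors described here. Capitals mark the GC box GGGCGG and the E-box CANNTG, searched on both strands. The windows, in the same build, are chr5:75152001-75152250 on the plus strand for Pdgfra, chr5:75574737-75574986 on the plus strand for Kit (the first of 2 entries) and chr5:75978456-75978705 on the minus strand for Kdr.
Pdgfra: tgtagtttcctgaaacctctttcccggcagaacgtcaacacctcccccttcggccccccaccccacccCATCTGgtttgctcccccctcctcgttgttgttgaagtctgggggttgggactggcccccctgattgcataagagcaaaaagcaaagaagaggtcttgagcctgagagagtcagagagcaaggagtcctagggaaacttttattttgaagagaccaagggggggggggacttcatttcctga
Kit: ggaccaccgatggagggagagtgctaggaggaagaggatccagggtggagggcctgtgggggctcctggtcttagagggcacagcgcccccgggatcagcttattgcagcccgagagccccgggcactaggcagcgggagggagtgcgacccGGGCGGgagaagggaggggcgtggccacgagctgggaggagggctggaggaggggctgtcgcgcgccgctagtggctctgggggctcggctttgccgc
Kdr: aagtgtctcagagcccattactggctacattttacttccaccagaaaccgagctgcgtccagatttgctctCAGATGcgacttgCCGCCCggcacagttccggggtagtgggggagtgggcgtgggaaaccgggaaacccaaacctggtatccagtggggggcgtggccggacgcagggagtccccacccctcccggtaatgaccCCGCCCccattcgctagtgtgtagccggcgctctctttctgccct
The Pdgfra window holds 1 E-box and no GC box, the Kit window 1 GC box and no E-box, and the Kdr window 1 E-box and 2 GC boxes. Marked motifs do not overlap. A GC box is found in 32.7% and an E-box in 66.2% of the 32851 RefSeq promoter windows of this length. Also searched on both strands, and not marked, were the ETS core GGAAG, found once each in the Kit and Kdr windows and in 64.1% of all windows, and GATAA (22.6%) and TATAAA (12.4%), which none of these 3 windows holds. G and C make up 54.4% of the Pdgfra window, 70.8% of the Kit window and 61.6% of the Kdr window.

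The deposited values are linear ratios of each probe set to its median over the 3 double-negative arrays. They compare arrays and give no level of a transcript, so the members cannot be ranked by abundance. Transcripts of the sorted proteins served to check the labels. Cxcr4 lay between 5.405 and 8.044 in double-positive cells and between 0.783 and 1.954 in double-negative cells, and Kdr between 4.943 and 13.39 against 0.75 to 3.929. Double-negative replicate 2 had the highest value of both genes within its group. The replicate 1 arrays stood apart in both groups: the median log2 ratio over all probe sets was -0.41 in double-positive and -0.33 in double-negative replicate 1, and between 0 and 0.11 in the other 4 arrays. In limma's moderated test over all 22526 probe sets, 0 passed at a Benjamini-Hochberg adjusted p of 0.05, and the background for an adjusted call is therefore 0.0%. At an unadjusted p under 0.05 there were 1097 probe sets (4.87%). None of the differences below passed the adjustment in this test.

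Pdgfra had higher ratios in double-positive cells on 3 of its 4 probe sets, by between 2.86-fold and 3.75-fold. Whether more cells carried the transcript or each cell carried more of it cannot be told apart in sorted bulk samples. Probe set 1438946_at gave 2.683, 2.345 and 2.787 in the double-positive arrays (replicates 1 to 3, here and below), against 1, 0.612 and 1.031 in the double-negative arrays. All 3 double-positive arrays lay above all 3 double-negative ones, and close together. The difference, double positive minus double negative throughout, was 1.60 on the log2 scale (SE 0.343, 95% confidence interval 0.81 to 2.38, n = 3 per group), or 3.03-fold. Its limma p was 0.00148 before and 0.563 after adjustment over all probe sets. With weights that favour arrays of low scatter it reached a limma adjusted p of 0.0289, but those weights were very unequal, with 6.65 for double-positive replicate 3 against 0.182 for double-negative replicate 1.

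Probe set 1421916_at gave a similar picture, with 1.663, 2.584 and 2.548 in double-positive cells against 0.444, 1 and 1.052 in double-negative cells. Again the groups did not overlap, although replicate 1 was the lowest array of each group. This probe set has a flag score of 3 of 6, against 5 of 6 for 1438946_at; the score, deposited with the values as a whole number from 2 to 6, is taken to count the arrays with detection. The log2 difference was 1.52 (SE 0.431, 95% confidence interval 0.53 to 2.51, n = 3 per group), with a limma p of 0.00745 and an adjusted p of 0.718. It reached a limma adjusted p of 0.0412 with array weights. The authors' deposited table gives unadjusted p-values of 0.0157 for 1438946_at and 0.0443 for 1421916_at.

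Probe set 1421917_at was uneven. It stands for Pdgfra wherever a gene is counted by 1 representative probe set, chosen first by the flag score. That score is 5 here and also for 1438946_at, and the tie went to the lower identifier. Probe set 1421917_at stood at 0.748, 2.584 and 3.239 in double-positive cells and at 0.0956, 1 and 1.243 in double-negative cells. Double-negative replicate 1 lay far under the rest of its group, and double-positive replicate 1 lay among the double-negative values, so the groups overlapped. Within each replicate number the double-positive array was the higher, by 2.97, 1.37 and 1.38 on the log2 scale for replicates 1 to 3. The log2 difference was 1.91 (SE 0.987, 95% confidence interval -0.36 to 4.17, limma adjusted p = 1), 0.73 when double-negative replicate 1 was left out, and 1.38 when the replicate 1 arrays of both groups were. With the replicate number as a block the limma p was 0.005 before and 0.246 after adjustment.

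The fourth Pdgfra probe set, 1445911_at, did not show this. Its values were 0.719, 1.206 and 1.281 in double-positive cells against 1, 0.816 and 1.176 in double-negative cells, a log2 difference of 0.07 (SE 0.362, 95% confidence interval -0.76 to 0.90). Its interval reaches as far as a 1.87-fold higher value. Where in the gene each probe set binds is not given in the sources used here.

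**Figure D1:**
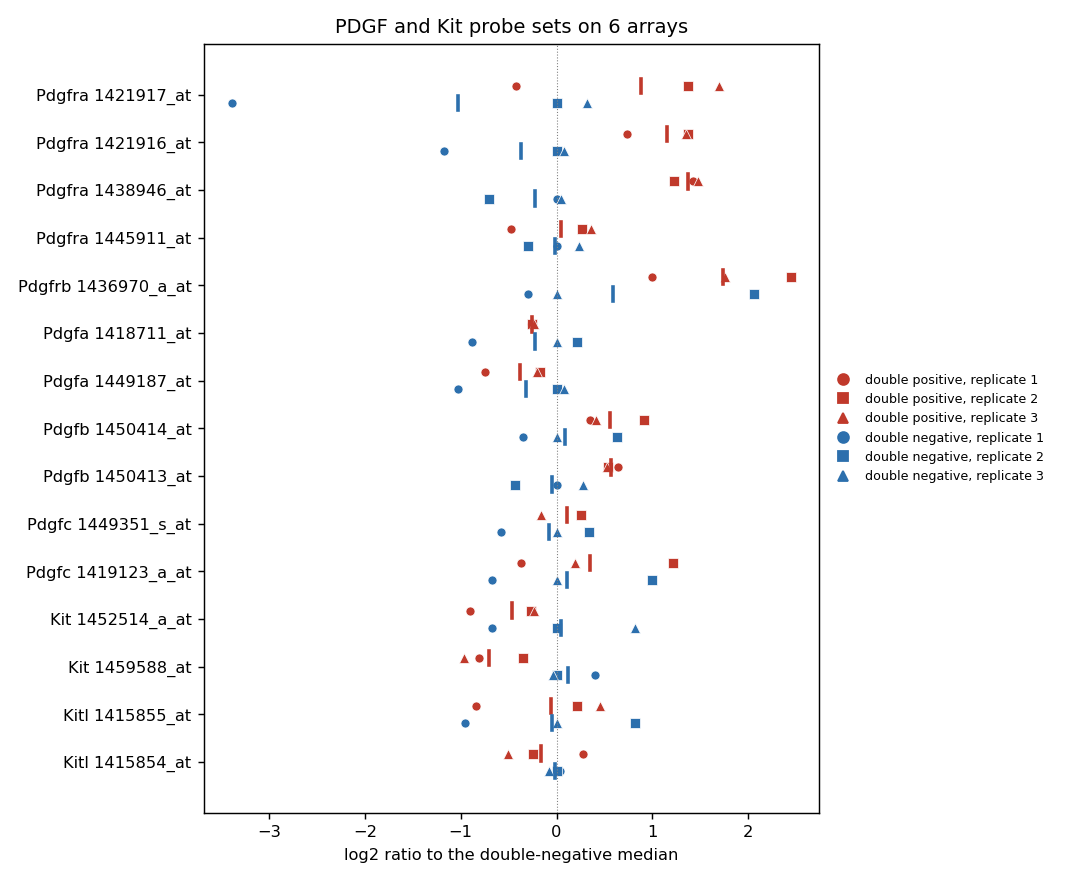
Log2 ratio to the double-negative median (x axis) of the 15 probe sets of PDGF and Kit genes on the 6 arrays. Each marker is 1 array, its shape gives the replicate number, and the vertical bar is the group mean. Double-positive arrays (red) lie above double-negative arrays (blue) without overlap for Pdgfra 1421916_at and 1438946_at and for Pdgfb 1450413_at, and below them for Kit 1459588_at.

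Pdgfrb also had higher values in double-positive cells, but 1 double-negative sample reached nearly as high. Its probe set 1436970_a_at, detected on all 6 arrays by the flag score, stood at 2, 5.442 and 3.395 in double-positive cells and at 0.812, 4.186 and 1 in double-negative cells. Double-negative replicate 2 lay above 2 of the 3 double-positive arrays, and it was also the double-negative array with the highest Kdr, at 3.929. The log2 difference was 1.15 (SE 0.662, 95% confidence interval -0.37 to 2.66, n = 3 per group, limma adjusted p = 1). It was 1.89 without that array, but 0.70 without double-negative replicate 1 and 0.79 without double-positive replicate 2. The double-positive array was higher in 3 of 3 replicate pairs, by 1.30, 0.38 and 1.76. With the replicate number as a block the limma p was 0.0172 before and 0.321 after adjustment, and over genes detected on all 6 arrays only the blocked adjusted p was 0.144. In that test 81 of 8602 genes passed (0.942%), Cxcr4 and Kdr among them. This combination of filter and block was chosen after the data had been seen. Its filter leaves out all probe sets of Pdgfra and Pdgfb.

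Kit ran the other way. Probe set 1452514_a_at, detected on all 6 arrays, stood at 0.536, 0.832 and 0.852 in double-positive cells against 0.626, 1 and 1.767 in double-negative cells. Each double-positive array was below the double-negative array of the same replicate number, by 0.22, 0.27 and 1.05 on the log2 scale. The groups still overlapped through the low double-negative replicate 1. The log2 difference was -0.51 (SE 0.447, 95% confidence interval -1.54 to 0.51, limma adjusted p = 1). It was -0.13 without double-negative replicate 3, -0.88 without double-negative replicate 1 and -0.30 without double-positive replicate 1. The second probe set, 1459588_at, stood at 0.571, 0.787 and 0.511 against 1.324, 1 and 0.976, without overlap. Its log2 difference was -0.83 (SE 0.335, 95% confidence interval -1.60 to -0.06), or 1.78-fold lower, with a limma p of 0.0374 and an adjusted p of 0.968. That probe set has a flag score of 2 of 6.

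The log2 differences of the ligand genes lay between -0.14 and 0.62. Without the replicate block or array weights, no 95% confidence interval of a ligand probe set excluded 0. Pdgfb, whose product binds both PDGF receptors and is made by endothelial cells for mural cell recruitment, was farthest from 0 among the 4 ligand genes. Its probe set 1450413_at stood at 1.561, 1.454 and 1.44 in double-positive cells against 1, 0.74 and 1.215 in double-negative cells. The groups did not overlap, and the log2 difference was 0.62 (SE 0.328, 95% confidence interval -0.13 to 1.37, limma adjusted p = 1). With the replicate number as a block its limma p was 0.0451 before and 0.398 after adjustment. Probe set 1450414_at stood at 1.272, 1.889 and 1.328 against 0.782, 1.551 and 1, with a difference of 0.47 (SE 0.377). Here double-negative replicate 2 reached into the double-positive range. That difference was 0.29 without double-positive replicate 2. It was 0.74 when double-negative replicate 2 was left out and 0.24 when double-negative replicate 1 was. Both probe sets were higher in 3 of 3 replicate pairs.

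Pdgfa, the ligand that acts through PDGFR-alpha alone, showed almost no difference of group means. Its probe set 1418711_at stood at 0.829, 0.835 and 0.852 in double-positive cells and at 0.543, 1.158 and 1 in double-negative cells. The 3 double-positive arrays were nearly equal and lay inside the double-negative range. Its log2 difference was -0.03 (95% confidence interval -0.89 to 0.83) and that of 1449187_at was -0.06 (-0.99 to 0.87), which allows anything from 0.503-fold to 1.83-fold for the second.

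Pdgfc encodes a ligand that is secreted in a latent form and activated by tissue plasminogen activator. Its probe set 1449351_s_at stood at 1.19, 1.194 and 0.892 in double-positive cells against 0.668, 1.263 and 1 in double-negative cells, a log2 difference of 0.20 (SE 0.361). Probe set 1419123_a_at stood at 0.774, 2.328 and 1.145 against 0.627, 2.001 and 1. Its difference was 0.24 (SE 0.552), with replicate 2 the highest array of each group. The second set was higher in all 3 replicate pairs, by 0.20 to 0.30 on the log2 scale.

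Kitl, the gene of stem cell factor, which is made in soluble and membrane-bound forms, had overlapping groups on both probe sets. Probe set 1415855_at stood at 0.557, 1.158 and 1.372 in double-positive cells and at 0.514, 1.767 and 1 in double-negative cells. Both replicate 1 arrays were low, and the log2 difference was -0.01 (SE 0.540). Probe set 1415854_at stood at 1.209, 0.845 and 0.705 against 1.026, 1 and 0.947, a difference of -0.14 (SE 0.334).

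**Figure D2:**
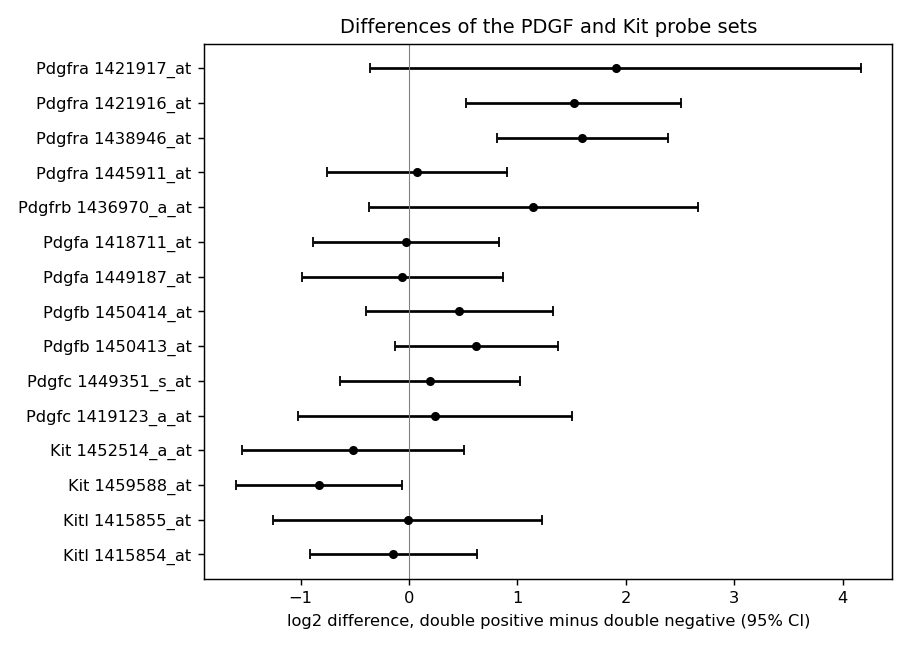
Log2 difference between double-positive and double-negative cells (x axis, points) with its 95% confidence interval from limma (bars) for each of the 15 probe sets. The intervals of Pdgfra 1421916_at and 1438946_at lie above 0 and that of Kit 1459588_at below 0, before any adjustment for the number of probe sets.

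Counted over the 15 probe sets, 3 had groups that did not overlap on the higher side (Pdgfra 1421916_at and 1438946_at, Pdgfb 1450413_at) and 1 on the lower side (Kit 1459588_at). Over all 22526 probe sets 4.61% did so on the higher and 5.38% on the lower side. At an unadjusted p under 0.05 there were 3 of the 15, and 6 with the replicate number as a block, where the background was 4.87% and 12.3%. The double-positive array was higher in all 3 replicate pairs for 7 of the 15 and lower in all 3 for 2, both of Kit, against 21.5% and 17.8% of all probe sets. Without the replicate 1 arrays, 5 of the 15 did not overlap on the higher side and 5 on the lower side, where 22.0% and 20.6% of all probe sets did. The median log2 difference was 0.20 over the 15 and 0.02 over all probe sets. Probe sets named after 1 gene were measured in the same samples and are no independent observations, and 9 of the 15 have a flag score under 6.

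Differences between genes within an array do not depend on a common factor applied to that array. They were added after the values had been seen, for 10 pairs of genes by their representative probe sets. Pdgfra minus Kit was 0.48, 1.63 and 1.93 on the log2 scale in double-positive cells, against -2.71, 0 and -0.51 in double-negative cells, without overlap. Kit minus Kdr was -3.21, -4.01 and -3.62 in double-positive cells against -0.68, -1.97 and 1.24 in double-negative cells, also without overlap. Pdgfrb minus Kdr was -1.31, -1.30 and -1.62 in double-positive cells against -0.30, 0.09 and 0.42 in double-negative cells. Kdr encodes a protein the cells were sorted on, so separation in the last 2 pairs is not independent of the sort. Each of these 3 pairs has an exact permutation p of 0.1 (two-sided), the smallest that 3 arrays against 3 can give, and an adjusted p of 0.333 over the 10 pairs. The other 7 pairs overlapped. Pdgfra minus Pdgfrb was at -0.85 ± 0.70 in double-positive and -1.61 ± 1.74 in double-negative cells (mean and SD, n = 3 each, exact permutation p = 0.5), with overlap.

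**Figure D3:**
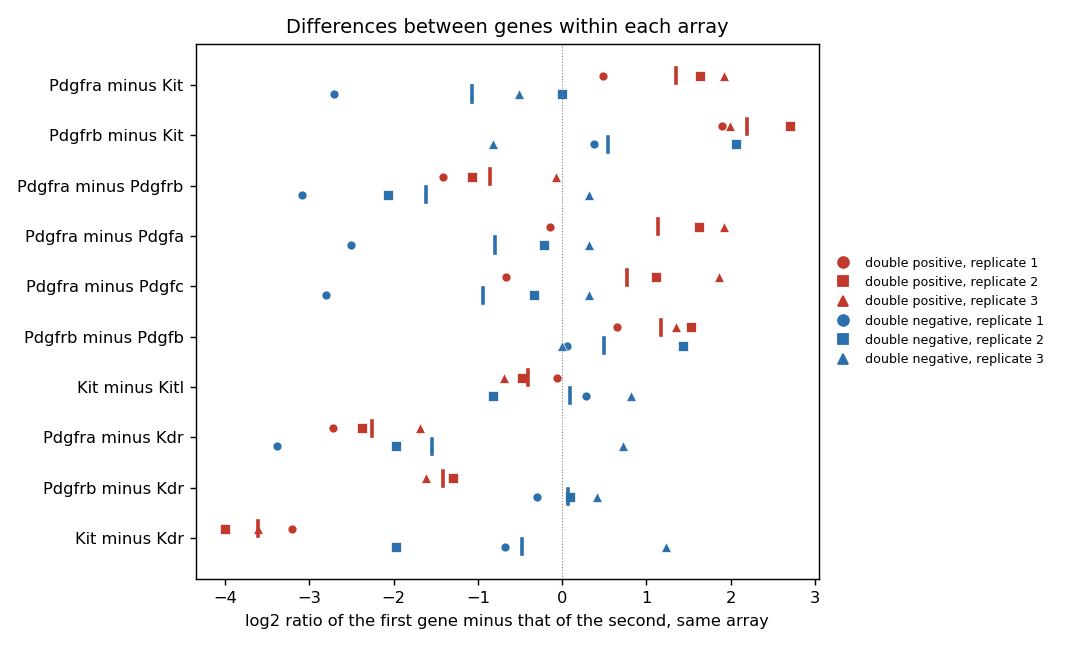
Log2 ratio of one gene minus that of another on the same array (x axis) for 10 pairs of genes. Markers are arrays, shapes are replicate numbers and vertical bars are group means. The groups do not overlap for Pdgfra minus Kit, Pdgfrb minus Kdr and Kit minus Kdr.

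Along chromosome 5, Pdgfra and Kdr had the highest log2 differences, 1.91 and 2.62, of the genes measured around Kit, by their representative probe sets. Of 14 listed genes around Kit, 11 were measured, and Kdr was the 1 whose groups did not overlap. Among all named genes 5.13% did not overlap on the higher and 5.33% on the lower side. Chic2, beyond Pdgfra as seen from Kit, was at a log2 difference of 0.19 (SE 0.321). Srd5a3, the next gene beyond Kdr, was at 0.37 (SE 0.544), and Clock, the circadian regulator further on, at -0.54 (SE 0.461). The 8 measured genes other than Pdgfra, Kit and Kdr lay between -0.54 and 0.37, each with a confidence interval that includes 0. Gsx2, Pdcl2 and Nmu are not named in the comparison table. Kit, between the other 2 receptors, had the second lowest value of the 11.

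**Figure D4:**
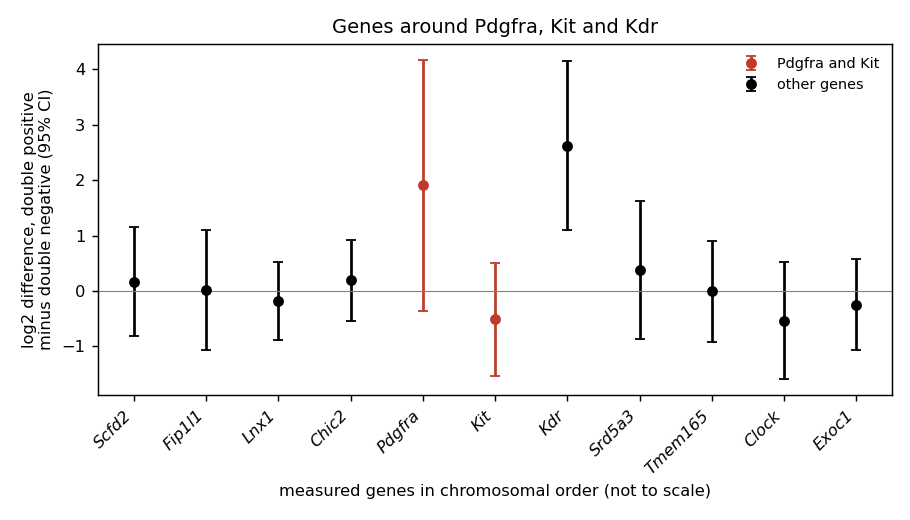
Log2 difference between double-positive and double-negative cells (y axis, points) with its 95% confidence interval for 11 measured genes in their order on mouse chromosome 5, not to scale. Pdgfra (1.91) and Kdr (2.62) lie above the other genes, and Kit (-0.51) lies between them on the chromosome. The intervals of Pdgfra and Kit include 0.

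Profiles most like those of the receptors were sought among 8017 conventionally named genes detected on all 6 arrays, by the root mean square difference of centred log2 ratios over the 6 arrays. Nearest to Pdgfra were Mixl1 (0.339), a homeobox gene of the primitive streak, and Eomes (0.480), a T-box gene of early mesoderm and endoderm. Mixl1 stood at 0.498, 2.597 and 2.087 in double-positive cells against 0.0638, 1.204 and 1 in double-negative cells, and Eomes at 0.923, 2.047 and 1.912 against 0.158, 1.007 and 1. Alyref was at 0.567. These 3 genes had their lowest value in double-negative replicate 1, as had probe set 1421917_at of Pdgfra.

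Nearest to Pdgfrb were Rbms1 (0.192), the membrane peptidase gene Mme (0.238), the basement membrane gene Nid1 (0.240), Pard6b (0.258) and the collagen gene Col4a1 (0.268). They shared the high double-negative replicate 2: Col4a1 stood at 2.095, 4.583 and 2.659 in double-positive cells against 0.663, 2.479 and 1 in double-negative cells. Donson, Acadl, Tmem176b, Snrpn and Tor3a were nearest to Kit, at 0.108 to 0.160. For Kit 71 genes lay within 0.25, against 3 for Pdgfrb and 0 for Pdgfra. The log2 ratio of Kit spanned 1.72 over the 6 arrays, that of Pdgfrb 2.74 and that of Pdgfra 5.08.

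The wider pathway was described from gene lists, each gene by 1 probe set, and 0 genes of any list passed the limma test over all probe sets. Over the 12290 named genes, groups did not overlap on the higher side for 5.13% and on the lower side for 5.33%. Among related receptors and ligands 4 of 8 listed genes were measured, and Pdgfrl, a PDGF receptor-like gene without a kinase, was the 1 without overlap. It stood at 0.396, 0.399 and 0.533 in double-positive cells against 0.544, 1.079 and 1 in double-negative cells (log2 difference -0.93, SE 0.378, limma adjusted p = 0.97). The VEGF receptor genes Flt1 and Flt4 were at 0.62 (SE 0.381) and 0.82 (SE 0.366), with overlap. Csf1r, a receptor gene of the same class as Kit, was at 0.07 (SE 0.344).

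Genes that process or bind the ligands held 12 measured members of 13, with 2 not overlapping on the higher and 1 on the lower side. Plat, the gene of the tissue plasminogen activator that activates PDGF-C, stood at 1.643, 1.226 and 1.904 in double-positive cells against 1.167, 1 and 0.602 in double-negative cells (0.82, SE 0.378, limma adjusted p = 1). The proprotein convertase gene Pcsk5 stood at 2.701, 4.594 and 2.508 against 0.054, 1.384 and 1, with double-negative replicate 1 far under the other arrays (2.90, SE 1.09, limma adjusted p = 0.945). Furin, a convertase that cleaves PDGF-A and PDGF-B precursors, was at -0.03 (SE 0.317). A2m, whose product binds PDGF in plasma, was the lower one, at -0.54 (SE 0.307). The list's median was 0.48, against 0.04 over all named genes.

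Genes of signalling proteins downstream mostly had overlapping groups, as did most of all named genes. Over all named genes 5.13% did not overlap on the higher and 5.33% on the lower side. Of 39 measured adaptor and enzyme genes of 45 listed, 0 did not overlap on the higher and 1 on the lower side, with a median of -0.05. That 1 was Pik3cb, a catalytic subunit of phosphoinositide 3-kinase, at 0.081, 0.384 and 0.629 in double-positive cells against 1, 0.949 and 1.213 in double-negative cells (-1.96, SE 0.691, limma adjusted p = 0.899). The adaptor genes Grb2 and Shc1 were at 0.42 (SE 0.404) and 1.36 (SE 0.732), with overlap. Of 22 measured genes of the Ras-MAPK and PI3K-Akt cascades, Tsc1, an inhibitor of mTOR signalling, was the 1 without overlap, at -0.67 (SE 0.445). Their median was 0.13.

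Among 26 measured growth factor response genes of 30 listed, 1 did not overlap on each side. Myc stood at 2.004, 6.263 and 4.18 in double-positive cells against 0.743, 1.689 and 1 in double-negative cells (1.80, SE 0.506, limma adjusted p = 0.71). Spry1, a feedback inhibitor of receptor signalling, stood at 0.54, 0.699 and 0.764 against 0.805, 1 and 1.084 (-0.53, SE 0.324, flag score 3 of 6). The immediate-early genes Fos and Egr1 were at -0.23 (SE 0.319) and 0.34 (SE 0.336), and the list's median was 0.08.

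Markers of the cell types that carry these receptors were followed beside them, as the mean log2 ratio of each list per array. Over all named genes that mean was -0.43 in double-positive and -0.48 in double-negative replicate 1, and between 0.01 and 0.09 in the other arrays. The groups did not overlap for 5.13% of all named genes on the higher side and 5.33% on the lower. Paraxial mesoderm markers, of which 8 of 15 were measured, ran from -0.75 to 0.56 in double-positive and from -0.52 to 0.81 in double-negative arrays, and 0 did not overlap on either side. Tbx6, a T-box factor of paraxial mesoderm, was at -0.19 (SE 0.437). Extraembryonic endoderm markers, with 13 of 18 measured, ran from -0.56 to 0.76 in double-positive and from -1.05 to 0.38 in double-negative arrays. Replicate 1 was the lowest array of each group. Of these markers Sox7 (1.71, SE 0.397) and Ihh (0.63, SE 0.330, flag score 4 of 6) did not overlap on the higher side. By group means 7 of the 13 were higher in double-positive cells and 6 were lower. With overlap, Gata6 (1.69), Col4a1 (1.32), Col4a2 (1.10) and Gata4 (1.01) were among the higher ones. Among the lower ones were Sox17 (-0.80), Foxa2 (-0.50) and Dab2 (-0.35, SE 0.587). The limma p was under 0.05 before adjustment for 4 of the 13 on the higher side and 0 on the lower. Of the 12290 named genes 197 and 410 were. Afp, Cubn, Amn, Hnf4a and Apoa1 are not in the comparison table. The part of such cells in the Pdgfra difference was not tested.

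Mural cell markers, with 5 of 12 measured, ran from 0.28 to 0.47 in double-positive and from -0.26 to 0.56 in double-negative arrays. Rgs5, a pericyte gene, stood at 2.896, 9.191 and 5.243 in double-positive cells against 0.766, 2.986 and 1 in double-negative cells, with double-negative replicate 2 again high. Abcc9 did not overlap on the lower side (-1.29, SE 0.387, flag score 3 of 6). The groups of Rgs5, Tagln (0.31), Notch3 (0.07) and Acta2 (0.03) overlapped. The median of the mural list was 0.07, against 0.04 over all named genes. Cspg4, Des and Myh11 are not in the comparison table. Endothelial markers, with 7 of 13 measured, ran from 0.70 to 1.06 in double-positive and from -0.38 to 0.49 in double-negative arrays. The 3 without overlap were Fli1 (2.24), Etv2 (2.04) and Tek (1.11), while Cdh5 (-0.08), Eng (0.18), Egfl7 (0.44) and Flt1 (0.62) overlapped. Among all named genes 5.13% did not overlap on the higher and 5.33% on the lower side. Pecam1, Tie1, Erg, Sox18, Emcn and Esam are not in the comparison table. The part of either cell type in the Pdgfrb and Pdgfb values was not tested.

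Beside Kit, germ cell markers were lower in double-positive cells for all 7 measured of 10 listed, Kit itself included. Their mean ran from -1.89 to -1.16 in double-positive and from -0.76 to 0.47 in double-negative arrays, and 4 did not overlap, among them Dnd1 (-2.50), Dppa3 (-2.05) and Prdm1 (-1.66). Pluripotency markers, with 13 of 14 measured, ran from -1.21 to -0.86 in double-positive and from -0.28 to 0.19 in double-negative arrays. Sox2, Gdf3 and Pou5f1 were the 3 largest of 8 without overlap, all on the lower side. For all named genes the share without overlap was 5.13% on the higher and 5.33% on the lower side. Haematopoietic and mast cell markers, with 10 of 15 measured, ran from -0.73 to 0.23 in double-positive and from -1.26 to 1.27 in double-negative arrays. Tal1 (1.76) and Lmo2 (1.38), factors of early blood, did not overlap on the higher side. The embryonic globin gene Hbb-bh1 was at -2.49 (SE 1.69), with overlap. Hbb-bh1 stood at 2.061, 0.324 and 0.108 in double-positive cells against 37.35, 1 and 0.341 in double-negative cells. Double-negative replicate 1, far above the other arrays here, also gave the list's highest mean, 1.27. The 6 measured melanoblast markers of 8 ran from -0.15 to 0.62 in double-positive and from -0.31 to 0.33 in double-negative arrays. Among them Dct (0.45, flag score 2 of 6) did not overlap, on the higher side, and Sox10 and Pmel are not in the comparison table. The part of these cells in the Kit values was not tested.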

How the data were processed

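The deposited value table holds linear ratios, each probe set divided by the authors by its median over the double-negative arrays (that median is 1 for 100% of probe sets). Biotinylated cRNA came from 6 ug of total RNA, per the labels' protocols. For probe summarisation and array scaling no label or file header names a method. The authors' deposited comparison table gives a fold (ratio), an unadjusted p-value and a flag score of 2 to 6 per probe set, per the file headers. The score was read as the number of arrays with detection. Its fold is the ratio of geometric means, and its p-value matches a Welch test within 0.005 for 99.97% of probe sets.

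Gene names come from that table, updated through RefSeq (GRCm38.p6): 11499 probe sets carried a current symbol, 8637 a synonym, 1163 kept their name, 115 had several candidates and 1112 none. The log2 ratios, with no pseudocount, entered a limma 3.58.1 model (R 4.3.3; lmFit and eBayes, two-sided, all 6 arrays, Benjamini-Hochberg over 22526 probe sets, threshold 0.05); the code was tested on simulated data. In counts per gene, the probe set of highest flag score stands for the gene, ties going to the plainest identifier and then to the lowest. Named genes are all members, the sort genes, up to 3 non-overlapping genes per list, the 5 nearest profiles per receptor and the chromosomal neighbours; 2 of the nearest profiles are not reported here. Other list genes in the text were chosen after their values were seen. Members and lists were chosen with earlier results of these data known. The ratios keep no brightness, so the number of arrays limits the precision.

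Replicate numbers were checked for pairing: deviations from the group means correlated by 0.49, 0.34 and 0.21 between arrays of replicates 1, 2 and 3. The numbers were taken to pair the arrays, which this check cannot settle for replicates 2 and 3. Both replicate 1 arrays were low, and deviations within a group cancel, so the other arrays of both groups tend to correlate whatever their number. Double-positive replicate 2 correlated with double-negative replicate 3 by 0.22, and double-positive replicate 3 with double-negative replicate 2 by 0.21. The labels do not say what a number shares. Results by replicate pair or replicate block rest on this assumption.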

Additional observations from a re-analysis of the deposited data

How the results depend on the processing

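The count of 0 probe sets past the limma adjusted threshold became 1 and 4 with pseudocounts of 0.437 and 1.748, 187 with array weights and 81 among genes detected on all 6 arrays with the replicate block, a combination chosen after seeing the data; it ran from 0 to 1 when single arrays were left out. With the replicate block alone it stayed at 0, and no PDGF or Kit probe set passed (lowest adjusted p 0.19). With array weights Pdgfra 1421916_at (1.35) and 1438946_at (1.66) passed, as did Cxcr4 (2.32) and Kdr (2.95). Cxcr4 also passed with the pseudocount of 1.748 (1.47), and Cxcr4 (2.47) and Kdr (2.62) did with that combination. Signs turned for Pdgfc 1449351_s_at with array weights (-0.17) and without both replicate 1 arrays (-0.12), and for Kitl 1415855_at with array weights (0.14). Leaving out single arrays gave ranges of -0.083 to 0.33 for Pdgfra 1445911_at, -0.36 to 0.19 and -0.42 to 0.14 for Pdgfa 1418711_at and 1449187_at, -0.054 to 0.41 and -0.20 to 0.69 for Pdgfc 1449351_s_at and 1419123_a_at, and -0.47 to 0.42 and -0.36 to 0.029 for Kitl 1415855_at and 1415854_at. The other 8 member probe sets kept their sign in every setting in which they were tested. The cause of these changes was not tested.

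Probe sets with an unadjusted p under 0.05 numbered 1097, of which 28.3% were higher. With the replicate block there were 2761 (41.0% higher), with the pseudocount of 1.748 1219 (47.5%), with array weights 3316 (44.5%), with a variance trend and robust fit 728 (58.8%), and without both replicate 1 arrays 2097 (38.8%). There were 669 without double-positive replicate 2, 504 of 14140 detected on all 6 arrays, 2478 of all 45037 probe sets of the value table, and 632 and 704 of 12290 genes by 1 probe set and by the mean of their probe sets. A pseudocount of 1.748 brought Pdgfra 1421917_at, 1421916_at and 1438946_at to 0.61, 0.64 and 0.73 on the log2(value + pseudocount) scale. Leaving out double-positive replicate 1, double-negative replicate 1 or double-negative replicate 2 moved the median of all probe sets to 0.18, -0.15 and 0.11.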
